A study of Mus musculus with 10 samples.

Results

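The genes described here are the core BCL2 family and the apoptosome scaffold Apaf1, 10 genes of the 55487 in the deposited gene table, chosen by symbol from a list of pro-apoptotic and anti-apoptotic family members, several of them targets of p53. They comprise the 4 BH3-only genes Bbc3 (encoding PUMA), Pmaip1 (NOXA), Bid and Bcl2l11 (BIM), the 2 effectors Bax and Bak1, the 3 anti-apoptotic genes Bcl2, Bcl2l1 (BCL-XL) and Mcl1, and Apaf1. All 10 matched 1 gene each, and all 10 averaged at least 0.5 TPM in both groups and were tested.

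Proteins of the BCL2 family decide whether the outer mitochondrial membrane is opened. BH3-only proteins bind and block BCL2, BCL-XL and MCL1, and some of them also activate BAX and BAK directly. Activated BAX and BAK release cytochrome c, which assembles with APAF1 into the apoptosome that activates caspase 9. In the developing cortex this pathway removes surplus neurons, and p53 is a known transcriptional activator of Bbc3, Pmaip1, Bax and Apaf1 among others.

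Total RNA of the mouse cerebral cortex was sequenced at 18 days of age in 5 Usp7 cKO; Trp53+/- animals and 5 Usp7 WT; Trp53+/- animals, so that both groups carried 1 functional copy of Trp53. In Usp7 cKO, Usp7 fl/fl was deleted by NEX-cre in glutamatergic neurons, whereas the tissue also holds interneurons, glia and vascular cells. USP7 is a deubiquitinase whose known substrates include MDM2, the ubiquitin ligase of p53. The comparison asks which transcripts differed between the cortices of both genotypes. The labels state that animals were paired by sex and litter but name no pair, and they do not say whether Usp7 WT animals carried the Cre allele.

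Levels are TPM, a transcript abundance that scales reads by gene length and library total. Usp7 measured 53.5, 50.2, 55.7, 48.3 and 61.9 TPM in Usp7 WT replicates 1 to 5 and 31.6, 36.0, 40.9, 35.3 and 40.9 TPM in Usp7 cKO replicates 1 to 5, without overlap between the groups (log2 change -0.54, adjusted p = 0.00131 in limma). Library totals over exon bins ran from 42628526 to 51797145 counts. In 2 libraries, Usp7 WT replicate 2 and Usp7 cKO replicate 1, the levels of Xist and Ddx3y went against the labelled sex, and levels are therefore also given without both. Defining markers of glutamatergic neurons were present in every library, and 10 of the 11 were called lower. Their sums ran from 7738 to 9032 TPM across Usp7 WT libraries and from 4447 to 5550 TPM across Usp7 cKO libraries. Nrgn weighed most in these sums, with a Usp7 WT mean of 4640 TPM against a Usp7 cKO mean of 2391 TPM. The sums therefore do not measure the shift of the whole list. The median log2 change of the 11 markers was -0.41 (limma). Single values were -0.39 for Slc17a7, -0.96 for Nrgn and -1.10 for Neurod6. Neurod6 (NEX), 1 of the 10 called lower, is the locus of the Cre. An effect of the Cre allele on its level and a change of the marker cannot be told apart. By limma, 11 of 12 microglial markers were called lower (sums of 442 to 499 against 304 to 349 TPM). Of 7 GABAergic markers 1 was lower, of 8 astrocyte markers 2 were higher and of 6 oligodendrocyte precursor markers 1 was higher. By edgeR on summed bin counts, 2 astrocyte markers were higher and 2 lower. That fit also called 2 GABAergic markers lower and 2 oligodendrocyte precursor markers higher. It called 14.0% of all genes tested higher and 13.9% lower. Among all genes tested by limma, 9.22% were called higher and 4.67% lower. Oligodendrocyte, endothelial and blood markers gave 0 calls by limma, edgeR or DESeq2 (0, 0 and 0 at an unadjusted p under 0.05 by limma), and pericyte and fibroblast markers 0 of 6 by limma (1 at an unadjusted p under 0.05) and 2 by edgeR. No marker list had a member at 0 in all libraries. The part of these marker shifts in the changes of the BCL2 family was not tested.

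Promoter windows of the rising genes Bbc3 and Bcl2l11 are shown because they hold the motif matches described next. RefSeq windows on GRCm38.p6 ran from 250 bases before to 50 bases after each annotated start. For 9 of the 10 genes, all but Pmaip1, 14 windows of 300 bases were found. They were scanned on both strands for the p53 element (a pair of decamers without a gap, both core motifs intact, at most 3 mismatches in 20 bases), the forkhead motif GTAAACA and the AP-1 motif TGANTCA. The motifs were chosen after the sequences and levels were known, and no matches overlap in the windows printed. Matches are in capitals, and the remaining bases are in lower case.
Bbc3 chr7:16309333-16309632, plus strand, p53 element in capitals: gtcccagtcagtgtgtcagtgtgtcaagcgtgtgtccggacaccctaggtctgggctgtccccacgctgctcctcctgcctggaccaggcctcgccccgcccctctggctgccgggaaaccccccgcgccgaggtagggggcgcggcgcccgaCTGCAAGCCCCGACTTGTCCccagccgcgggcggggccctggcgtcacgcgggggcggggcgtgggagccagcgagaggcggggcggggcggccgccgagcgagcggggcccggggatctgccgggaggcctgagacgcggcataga
Bbc3 chr7:16310011-16310310, plus strand, GTAAACA on the reverse strand in capitals: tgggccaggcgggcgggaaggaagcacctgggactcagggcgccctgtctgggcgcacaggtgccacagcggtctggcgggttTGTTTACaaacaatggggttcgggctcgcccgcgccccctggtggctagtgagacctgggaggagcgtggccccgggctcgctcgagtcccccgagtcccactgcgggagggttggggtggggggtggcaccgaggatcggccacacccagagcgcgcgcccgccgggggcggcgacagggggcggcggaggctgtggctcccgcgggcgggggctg
Bcl2l11 chr2:128125788-128126087, plus strand, GTAAACA in capitals: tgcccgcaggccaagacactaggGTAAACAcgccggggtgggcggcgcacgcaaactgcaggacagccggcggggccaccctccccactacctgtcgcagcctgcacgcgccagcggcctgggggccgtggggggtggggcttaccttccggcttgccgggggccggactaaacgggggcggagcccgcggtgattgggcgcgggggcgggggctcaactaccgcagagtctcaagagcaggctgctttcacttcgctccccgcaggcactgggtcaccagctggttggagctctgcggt

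The p53 element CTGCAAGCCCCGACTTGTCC, with 3 mismatches, began at position -97 from the Bbc3 start. It was the 1 match among the 14 windows, against 188 of all 32851 windows (0.572%). The promoter of Pmaip1 was not scanned. GTAAACA was found in 2 of the 14 windows, at -167 for Bbc3 and -227 for Bcl2l11, against 1199 of all windows (3.65%). TGANTCA was found in 0 of the 14 and in 2565 of all windows (7.81%). A match is a description of these letters and not evidence of binding.

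All 4 BH3-only genes were higher in Usp7 cKO, with every Usp7 cKO library above every Usp7 WT library. Of the 27580 genes tested, 8.19% had every Usp7 cKO library above every Usp7 WT library. Across the 10 members, 5 were called higher and 0 lower by limma at an adjusted p under 0.05, where 9.22% of the 27580 genes tested were called higher and 4.67% lower. At an unadjusted p under 0.05, 6 members were higher and 1 was lower. The share of all genes at that unadjusted threshold was not computed, so these counts are descriptions. The median log2 change was 0.29 over the 10 members and 0.06 over all genes tested. In bulk tissue, fewer cells of a type and less RNA per cell cannot be told apart, and the same holds for more cells and more RNA per cell.

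Pmaip1, whose product NOXA is a BH3-only protein that binds MCL1, showed the largest change of the members. It lies on chromosome 18 from 66458533 to 66465565 (GRCm38, plus strand). Its level was 0.846, 1.38, 2.35, 1.26 and 1.29 TPM in Usp7 WT replicates 1 to 5 and 8.26, 9.0, 7.88, 9.95 and 7.44 TPM in Usp7 cKO replicates 1 to 5. The lowest Usp7 cKO library was thus well above the highest Usp7 WT library. The mean rose from 1.42 ± 0.555 to 8.51 ± 0.990 TPM (SD, n = 5 each), a log2 change of 2.26 (SE 0.17, adjusted p = 2.11e-05, limma). The counts behind this gene were low in Usp7 WT, at 29 to 66 summed over all its exon bins, against 206 to 324 in Usp7 cKO. A read that crosses bins can count in more than 1 of them, so these sums are not numbers of reads. The log2 change was 2.56 by edgeR on those counts.

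Bbc3, whose product PUMA binds all anti-apoptotic members, lies on chromosome 7 from 16308393 to 16318205 (plus strand). It measured 12.6, 12.9, 13.7, 17.2 and 16.4 TPM in the Usp7 WT libraries, here and below in the order of replicates 1 to 5, and 24.9, 24.7, 28.3, 23.5 and 24.5 TPM in the Usp7 cKO libraries. The groups did not overlap, and replicate 3 was the highest of the Usp7 cKO libraries. The mean rose from 14.6 ± 2.13 to 25.2 ± 1.84 TPM (SD, n = 5 each), a log2 change of 0.78 (SE 0.10, adjusted p = 0.000737, limma).

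Bcl2l11, encoding BIM, a BH3-only protein needed for the death of many neurons deprived of trophic factors, lies on chromosome 2 from 128126038 to 128162547 (plus strand). Its level was 4.0, 3.78, 3.58, 4.55 and 4.16 TPM in the Usp7 WT libraries and 8.08, 6.93, 6.90, 7.26 and 6.23 TPM in the Usp7 cKO libraries. All Usp7 cKO libraries were above all Usp7 WT libraries, with little spread within either group. The mean rose from 4.01 ± 0.370 to 7.08 ± 0.672 TPM (SD, n = 5 each), a log2 change of 0.75 (SE 0.10, adjusted p = 0.000913, limma).

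Bid, whose product links death receptors to mitochondria once caspase 8 has cleaved it, lies on chromosome 6 from 120891930 to 120916853 (minus strand). It measured 6.04, 6.26, 7.10, 4.70 and 5.56 TPM in the Usp7 WT libraries and 8.02, 11.3, 11.7, 9.38 and 10.4 TPM in the Usp7 cKO libraries. The lowest Usp7 cKO library, replicate 1, was still above the highest Usp7 WT library. The mean rose from 5.93 ± 0.886 to 10.2 ± 1.49 TPM (SD, n = 5 each), a log2 change of 0.73 (SE 0.12, adjusted p = 0.00325, limma). Bid shares 17.7% of its exon bases with Bcl2l13 on the opposite strand. Its shared bin was at 0 in every library, so the bin counts of Bid come from its own exons. The same cannot be said of its TPM.

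Without both libraries of discordant sex the 4 BH3-only genes kept their calls in limma, at log2 changes of 2.38 for Pmaip1, 0.80 for Bid, 0.74 for Bbc3 and 0.69 for Bcl2l11. In that fit 4.75% of all genes were called higher and 3.14% lower. Each of the 4 calls was also kept in the other 21 alternatives run for it, among them leaving out any single library.

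**Figure D1:**
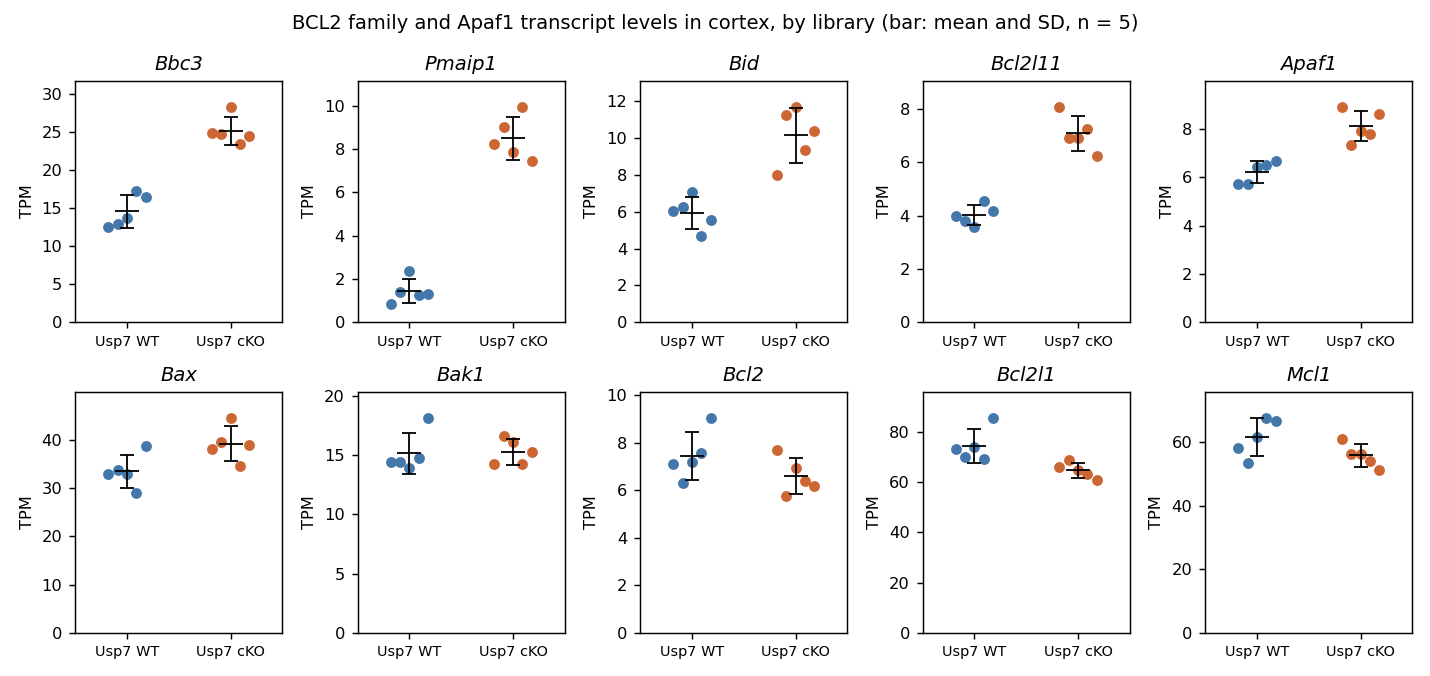
Levels of the 10 genes in TPM (vertical axes, each from 0) in the 5 Usp7 WT (blue) and 5 Usp7 cKO (orange) libraries, 1 point per library, with the group mean and SD as bars. The groups are separate for the 4 BH3-only genes, Apaf1 and, in the lower direction, Bcl2l1, and overlap for Bax, Bak1, Bcl2 and Mcl1.

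Apaf1, the scaffold of the apoptosome, lies on chromosome 10 from 90989311 to 91082770 (minus strand). Its level was 5.73, 5.73, 6.41, 6.51 and 6.69 TPM in the Usp7 WT libraries and 8.92, 7.35, 7.92, 7.80 and 8.61 TPM in the Usp7 cKO libraries. The groups did not overlap, but the gap between them was small. The mean rose from 6.21 ± 0.453 to 8.12 ± 0.634 TPM (SD, n = 5 each), a log2 change of 0.36 (SE 0.09, adjusted p = 0.0217, limma). The call was lost without Usp7 WT replicate 1, Usp7 WT replicate 2, Usp7 cKO replicate 1 or Usp7 cKO replicate 5, with adjusted p-values of 0.0598, 0.0521, 0.0605 and 0.0658 in limma. It was also lost without both libraries of discordant sex, at a log2 change of 0.31 and an adjusted p of 0.127 (limma).

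Neither effector was called by limma on TPM as deposited. Bax, which forms the pore in the outer mitochondrial membrane, lies on chromosome 7 from 45461697 to 45466898 (minus strand). It measured 32.9, 33.8, 32.9, 29.0 and 38.8 TPM in the Usp7 WT libraries and 38.1, 39.6, 44.6, 34.6 and 38.9 TPM in the Usp7 cKO libraries. The groups overlapped through Usp7 WT replicate 5, the highest of its group, and 3 Usp7 cKO libraries were above all Usp7 WT libraries. The means were 33.5 ± 3.48 and 39.2 ± 3.59 TPM (SD, n = 5 each), a log2 difference of 0.23 (95% interval 0.07 to 0.38, adjusted p = 0.0536, limma). Bax lay close to the threshold. It was called higher without Usp7 WT replicate 5 (log2 0.26, adjusted p = 0.0288, limma), on TPM rescaled with size factors from the median of ratios (0.16, adjusted p = 0.0140, limma) and on summed bin counts by edgeR (0.15, adjusted p = 0.0306). It was not called with Xist as covariate (0.15, adjusted p = 0.261, limma), without both libraries of discordant sex (0.18, adjusted p = 0.229, limma) or by edgeR with no filter on low counts (0.15, adjusted p = 0.111). Bax shares 12.2% of its exon bases with Gm45808 on the same strand, and reads there cannot be assigned to 1 of them.

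Bak1, the second effector, lies on chromosome 17 from 27019810 to 27029009 (minus strand). It measured 14.4, 14.4, 13.9, 14.8 and 18.2 TPM in the Usp7 WT libraries and 14.3, 16.6, 16.1, 14.2 and 15.3 TPM in the Usp7 cKO libraries. The groups overlapped throughout, and Usp7 WT replicate 5 was the highest library. The log2 difference was 0.02 (95% interval -0.15 to 0.19, adjusted p = 0.913, limma), and it turned negative on rescaled TPM (-0.04) and by edgeR (-0.03). Bak1 shares 25.5% of its exon bases with Ggnbp1 on the opposite strand, and 3 of its 14 bins, all in the first exons, were at 0 in every library.

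The 3 anti-apoptotic genes were all somewhat lower on average in Usp7 cKO, and none was called by limma on TPM as deposited with the labelled sex as covariate. Bcl2l1, encoding BCL-XL, a main survival factor of postmitotic neurons, lies on chromosome 2 from 152780668 to 152831728 (minus strand). It measured 73.1, 70.0, 74.0, 69.4 and 85.8 TPM in the Usp7 WT libraries and 66.1, 68.8, 65.1, 63.2 and 60.8 TPM in the Usp7 cKO libraries. All Usp7 cKO libraries were below all Usp7 WT libraries, and Usp7 WT replicate 5 was the highest. The means were 74.5 ± 6.66 and 64.8 ± 3.05 TPM (SD, n = 5 each), a log2 difference of -0.20 (95% interval -0.34 to -0.05, adjusted p = 0.0693, limma). The exact two-sided permutation test of the mean TPM gave p = 0.00794, the smallest that 5 against 5 libraries allow. On this scale 4.58% of all genes tested had every Usp7 cKO library below every Usp7 WT library, and 8.19% had every one above; 5 members were in the second class.

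Mcl1, a short-lived survival factor that NOXA binds, lies on chromosome 3 from 95658788 to 95663176 (plus strand). It measured 58.1, 53.4, 61.6, 67.7 and 66.8 TPM in the Usp7 WT libraries and 61.1, 56.3, 56.1, 54.0 and 51.3 TPM in the Usp7 cKO libraries. The groups overlapped, and the log2 difference was -0.14 (95% interval -0.29 to 0.02, adjusted p = 0.225, limma). Bcl2, the founding anti-apoptotic member, lies on chromosome 1 from 106538178 to 106714274 (minus strand). Its level was 7.11, 6.31, 7.19, 7.56 and 9.07 TPM in the Usp7 WT libraries and 7.69, 5.75, 6.95, 6.40 and 6.19 TPM in the Usp7 cKO libraries. The groups overlapped, with a log2 difference of -0.16 (95% interval -0.42 to 0.09, adjusted p = 0.402, limma). Bcl2 shares 6.09% of its exon bases with D630008O14Rik on the opposite strand.

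The calls of Bcl2l1 and Mcl1 depended on the fit. With Xist as covariate in place of the labelled sex, limma on TPM as deposited called Bcl2l1 lower (log2 -0.24, adjusted p = 0.0321) and Mcl1 not, where 6.12% of all genes were called higher and 4.82% lower. Without both libraries of discordant sex neither was called, at log2 differences of -0.25 for Bcl2l1 (adjusted p = 0.0815, limma), -0.21 for Mcl1 (adjusted p = 0.110, limma) and -0.28 for Bcl2 (adjusted p = 0.208, limma). On rescaled TPM Bcl2l1 was called lower at a log2 change of -0.26 (adjusted p = 0.00857, limma) and Mcl1 at -0.20 (adjusted p = 0.0410, limma). By edgeR on summed bin counts the log2 changes were -0.24 for Bcl2l1 (adjusted p = 0.00208) and -0.20 for Mcl1 (adjusted p = 0.0157). Rescaled TPM and the count fits also called more of all genes lower, 10.9% lower against 9.6% higher on rescaled TPM, 13.9% against 14.0% by edgeR and 14.9% against 13.8% by DESeq2. Bcl2 was called in none of these fits. Bcl2l1 and Mcl1 stayed below 0 in all 22 alternatives run for each, and Pmaip1, Bbc3, Bid, Bcl2l11, Apaf1 and Bax stayed above 0.

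**Figure D2:**
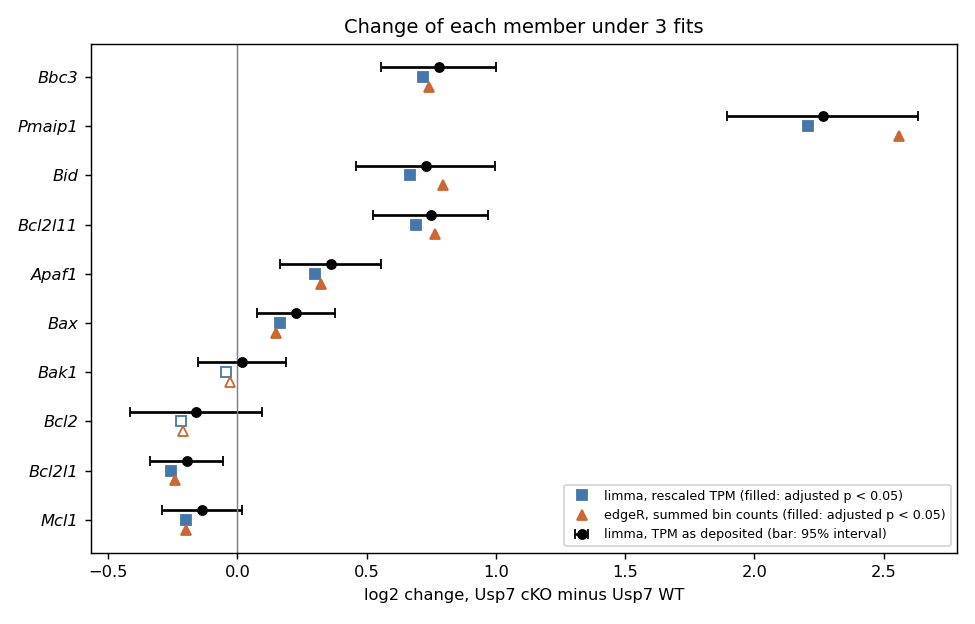
Log2 change of each gene, Usp7 cKO minus Usp7 WT (horizontal axis), from limma on TPM as deposited (black, with 95% interval), limma on rescaled TPM (blue squares) and edgeR on summed bin counts (orange triangles), the coloured symbols filled where the adjusted p was under 0.05. Pmaip1 stands at 2.26, Bbc3, Bid and Bcl2l11 between 0.73 and 0.78, and Bcl2l1 at -0.20 with both coloured symbols filled.

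The order of the levels shifted between the groups. In Usp7 WT Bcl2l1, Mcl1 and Bax were the 3 highest members at means of 74.5, 61.5 and 33.5 TPM, followed by Bak1 (15.1 TPM) and Bbc3 (14.6 TPM), whose ranges overlapped. Bcl2, Apaf1 and Bid followed at 7.45, 6.21 and 5.93 TPM, neighbours that overlapped, and Bcl2l11 and Pmaip1 were lowest at 4.01 and 1.42 TPM, each apart from its neighbour. In Usp7 cKO the ranges of Bcl2l1 and Mcl1 overlapped at 64.8 and 55.8 TPM, Bbc3 (25.2 TPM) was apart from and above Bak1 (15.3 TPM), and Bid, Pmaip1, Apaf1, Bcl2l11 and Bcl2 formed a run of overlapping neighbours from 10.2 to 6.60 TPM. TPM corrects for length, so these levels can be set beside each other, but relative amounts of transcript are not amounts of protein.

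Summed over the 4 BH3-only genes, the level was 23.4, 24.3, 26.7, 27.7 and 27.4 TPM in the Usp7 WT libraries and 49.2, 51.9, 54.8, 50.1 and 48.5 TPM in the Usp7 cKO libraries. The mean sum went from 25.9 ± 1.93 to 50.9 ± 2.53 TPM (SD, n = 5 each). The sum of the 3 anti-apoptotic genes was 143 ± 11.7 TPM in the Usp7 WT libraries and 127 ± 6.45 TPM in Usp7 cKO, with overlap between the groups. Per 100 TPM of these 3 anti-apoptotic genes there were 18.1 ± 1.07 TPM of the 4 BH3-only genes in Usp7 WT and 40.1 ± 2.31 in Usp7 cKO. Pmaip1 stood at 2.33 ± 0.921 TPM per 100 TPM of its partner Mcl1 in Usp7 WT and at 15.3 ± 1.97 in Usp7 cKO. Bax stood at 45.0 ± 2.32 TPM per 100 TPM of Bcl2l1 in Usp7 WT and at 60.5 ± 5.59 in Usp7 cKO. These ratios describe the chosen genes and carry no test.

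**Figure D3:**
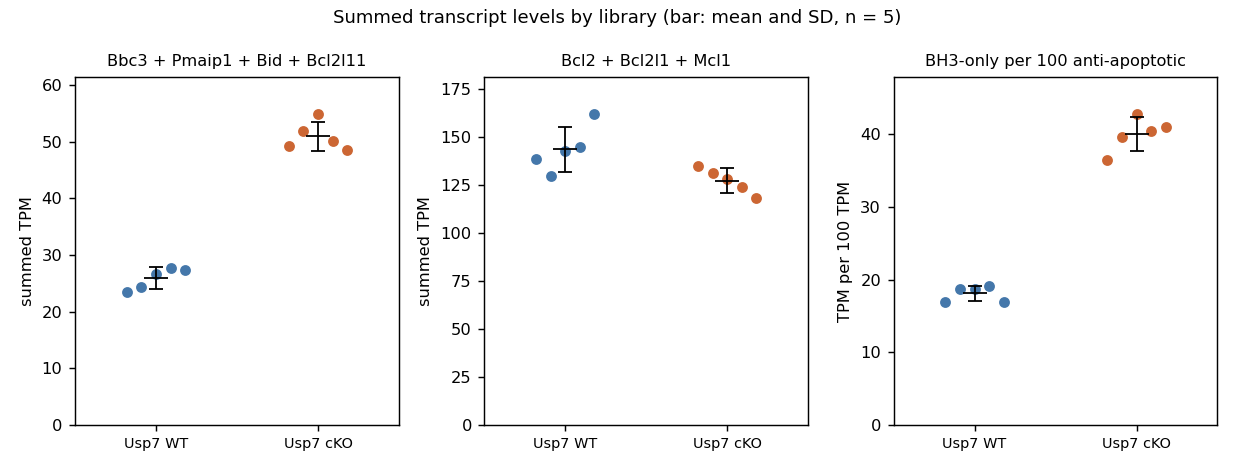
Summed TPM of the 4 BH3-only genes (left), summed TPM of the 3 anti-apoptotic genes (middle) and the first per 100 TPM of the second (right), 1 point per library, with group mean and SD as bars (n = 5). The BH3-only sum and the ratio do not overlap between the groups, at 25.9 against 50.9 TPM and 18.1 against 40.1. The separation of the sum follows from that of each of its 4 genes and is no further result. Hrk, Bad, Bmf and Bcl2l2 are part of neither sum.

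Exon usage of these genes was not called different. Of 116 exon bins tested in the 10 genes, 0 were called by edgeR (diffSpliceDGE) and 3 had an unadjusted p under 0.05, where 0.43% of all 228098 bins tested were called. Of the 10 genes 0 were called on their Simes p, where 2.85% of the 13954 genes tested were. In the authors' deposited table, 0 of the 138 bins with a value in these genes had an adjusted p under 0.05, the smallest being 0.133 for Bax. An unadjusted p under 0.05 was given for 8 of them. The share of all deposited bins under either threshold was not computed, so these counts describe the members alone. The lowest adjusted p over bins in edgeR was 0.51, for a first-exon bin of Bcl2l11 (chromosome 2, 128127575 to 128127812) used by 1 annotated transcript, with a relative log2 change of -0.53. The 168-base coding bin from 128128757 to 128128924, which distinguishes the long BIM form BimEL from BimL, had a relative log2 change of -0.17 (unadjusted p = 0.348, edgeR). In Mcl1 the 248-base middle exon, whose skipping is known to give a short pro-death form, had a relative log2 change of -0.06 (unadjusted p = 0.33, edgeR).

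Intron usage gave 4 clusters in these genes, of Bax, Bcl2l1, Bak1 and Bbc3, with 11 introns. By edgeR 0 clusters were called and 0 of the 11 introns had an unadjusted p under 0.05, where 0.22% of the 10441 clusters tested were called. The Bbc3 junction from its first-exon bin downstream of the p53 element window (16309861 to 16312126) held 84.8 ± 5.02% of the cluster's reads in Usp7 WT and 88.2 ± 5.87% in Usp7 cKO (SD, n = 5 each). The main Bax junction (45461966 to 45463399) held 95.6 ± 3.26% and 94.7 ± 2.07%. In Bcl2l1 the junction from 152830102 to 152830386, which joins an alternative first exon, held 48.7 ± 3.58% and 46.8 ± 11.6%. The short form BCL-XS was not analysed here.

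Bak1 holds a 20-base cassette exon, known from mouse neurons, whose inclusion shifts the reading frame and gives the neuronal form N-Bak, and it is shown because it is the one annotated neuronal microexon among these genes. With 15 bases of the neighbouring exons on either side, exon in capitals, on the minus strand at chr17:27021663-27021682 (GRCm38, GENCODE vM21):
Bak1 cassette exon: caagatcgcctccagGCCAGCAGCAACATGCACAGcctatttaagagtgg
Its inclusion was 50.7, 74.5, 64.2, 66.0 and 55.2% in Usp7 WT and 68.5, 73.9, 56.1, 51.1 and 82.0% in Usp7 cKO, from 52 to 110 spliced reads per library. The groups overlapped throughout. The means were 62.1 ± 9.37% and 66.3 ± 12.7% (SD, n = 5 each), a difference of 4.21 percentage points (p = 0.548, exact two-sided permutation test).

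The limma interaction of genotype and labelled sex was called for 0 of the 10 genes (0 at an unadjusted p under 0.05), where 0.00725% of all genes were called; with 2 labels discordant this does not show that the sexes respond alike. Genes of like level were sought among 11405 genes averaging 5 TPM or more, after symbols of the Gm, Rik, pseudogene or clone form were left out. The 3 genes among these whose levels over the 10 libraries were most like Pmaip1 were Bfsp1 (Pearson r of log2(TPM + 0.5) 0.988), Ostm1 (0.985) and Gaa (0.985). For Bbc3 they were Scarna2 (0.980), Dgkg (0.977) and Cpne2 (0.977). The points share the 2 genotype groups, and the r are descriptions.

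Beyond the BCL2 core, 41 of the 47 listed apoptosis genes reported here were tested, of which 7 were higher and 1 was lower, with a median log2 change of 0.03 beside 0.06 over all genes. The shares called over all genes tested were 9.22% higher and 4.67% lower. Of the other BH3-only genes Hrk, a neuronal BH3-only gene, was the 1 of 3 called. It measured 32.1, 30.7, 33.1, 37.6 and 38.1 TPM in the Usp7 WT libraries and 61.9, 58.5, 56.7, 59.0 and 59.1 TPM in the Usp7 cKO libraries, without overlap, a log2 change of 0.78 (adjusted p = 4.84e-05, limma). Bok, a relative of Bax and Bak1, rose from 34.9 ± 5.02 to 60.3 ± 4.73 TPM (SD, n = 5 each; log2 0.79). Casp9, the initiator that Apaf1 recruits, stood at 14.8 ± 1.34 and 15.0 ± 1.47 TPM (log2 difference 0.01, adjusted p = 0.938, limma). Cycs, encoding cytochrome c, stood at 36.0 ± 3.06 and 33.4 ± 1.88 TPM (log2 difference -0.11, adjusted p = 0.346, limma).

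Of the death receptor genes 1 of 8 rose, where 9.22% of all genes tested were called higher. It was the adaptor Tradd, from 8.72 ± 0.717 to 17.1 ± 2.19 TPM (log2 0.93). Of the inhibitors of apoptosis and their antagonists, Birc3 (log2 0.52) and Birc5 (log2 0.59) were higher, and the caspase inhibitor Xiap was lower, from 21.2 ± 2.11 to 16.9 ± 1.39 TPM (log2 -0.32, adjusted p = 0.0202, limma). Dffb, the nuclease that cuts DNA in apoptosis, rose by 0.57 and Ppif, a regulator of the mitochondrial permeability pore, by 0.36 on the log2 scale. The calls of Hrk, Bok and Tradd were kept in all 22 alternatives, whereas Birc3 lost its call in 9, Birc5 in 11 of 21, Xiap in 5, Dffb in 3 and Ppif in 2. Without both libraries of discordant sex these 5 were not called in limma, with adjusted p-values of 0.157 for Birc3, 0.051 for Birc5, 0.0781 for Xiap, 0.0788 for Dffb and 0.0879 for Ppif.

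**Figure D4:**
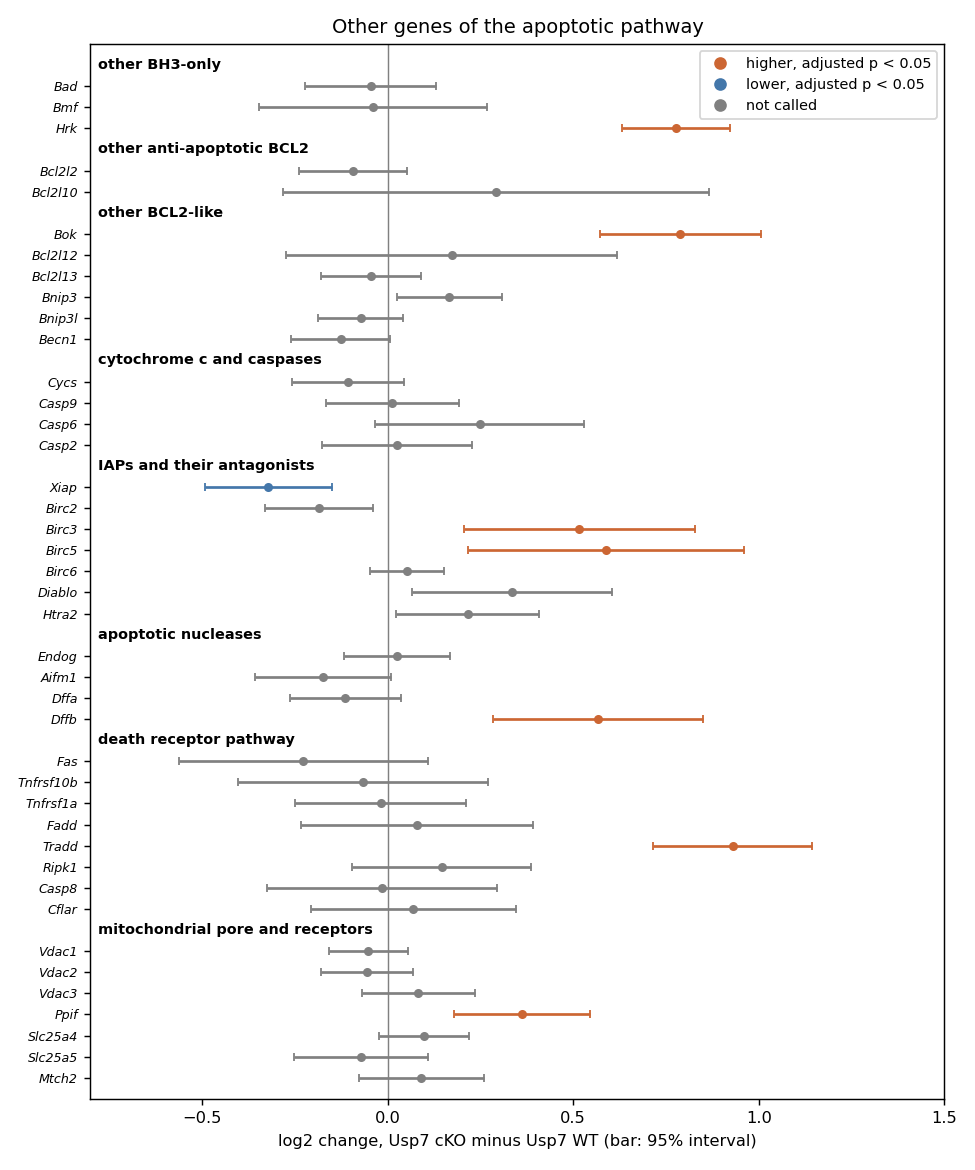
Log2 change, Usp7 cKO minus Usp7 WT, with 95% interval (limma on TPM), of 41 tested apoptosis genes outside the 10 members, by group, orange where called higher, blue where called lower and grey where not called. Hrk, Bok and Tradd lie between 0.78 and 0.93, and Xiap at -0.32 is the 1 gene called lower.

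Of the known p53 targets outside the family 11 of 23 tested were higher and 1, Zmat3, was lower, with a median log2 change of 0.32. Over all genes tested by limma, 9.22% were called higher and 4.67% lower, with a median log2 change of 0.06. Phlda3 rose by 0.94, Cdkn1a, the cell cycle inhibitor p21, by 1.02, Aen by 0.62 and Sesn2 by 0.48 on the log2 scale. Trp53 itself stood at 12.5 ± 1.42 and 12.6 ± 1.96 TPM (SD, n = 5 each) and Mdm2 at 24.4 ± 2.59 and 23.8 ± 1.99 TPM, neither of them called. In their list, the p53 family and its regulators, 1 of 8 tested genes was called higher and 0 lower by limma. Of 9 other tested transcription factors known to act on BH3-only genes, such as Foxo1, Foxo3 and Jun, 0 were called by limma, with 0 at an unadjusted p under 0.05. Of 10 tested on summed bin counts 0 were called by edgeR and 1 by DESeq2.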

How the data were processed

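Cortical total RNA of 5 Usp7 WT and 5 Usp7 cKO animals, all Trp53+/-, was depleted of ribosomal RNA by an enzymatic method, primed at random and sequenced, per the labels' protocols. The authors deposited TPM per gene, raw read counts of exon bins and raw counts of spliced reads per intron, per the file headers. The authors' deposited bin table also holds a log2 fold change and a p-value per bin. The genome build GRCm38 and the tools SAMtools 1.10, featureCounts of Subread and STAR 2.7.9a are named in the submitters' processing notes. The strand used for counting is not given in the sources used here. In TPM, reads of a gene and an overlapping antisense gene therefore cannot be told apart.

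The gene table held 55774 lines, 287 of them repeats, and 55487 genes. Intron counts of Usp7 WT replicate 1 were 100% even and were halved. Library totals ran from 42628526 to 51797145 bin counts and from 3388310 to 4367711 intron counts, and TPM keeps no depth.

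For gene levels, log2(TPM + 0.5) of the 27580 genes averaging 0.5 TPM or more entered limma 3.58.1 (R 4.3.3), with robust, trended empirical Bayes and the labelled sex as covariate. P-values were two-sided and adjusted by the Benjamini-Hochberg method over all genes tested, with a threshold of 0.05. Fold changes on this scale understate the change of low genes. For exon and intron usage, edgeR 4.0.16 (glmQLFit, diffSpliceDGE) was run on bins with a mean of at least 10 counts and introns with at least 5, with calls on Simes p. Single values were compared by exact permutation over 252 regroupings. Alternatives were other pseudocounts and filters, rescaled TPM, other sex covariates, libraries left out, and edgeR or DESeq2 1.42.0 on bin counts summed per gene. Every library is a separate animal, per the labels, and replicate numbers follow the order of deposition. Scripts were tested on simulated data.

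The members, lists, tests and the rule for named genes were chosen with earlier results of these data known. The rule names the 10 members, the called genes of each pathway list (up to 4 by smallest p), Usp7, Trp53, Mdm2, Cdkn1a, Casp9 and Cycs, and the 3 genes most like Pmaip1 and Bbc3. Some results under this rule are left out here. Zmat3, Foxo1, Foxo3, Jun, Bad, Bmf, Bcl2l2, Nrgn, Slc17a7 and Neurod6 were named after their values were seen. The check of Bak1 exon inclusion by single junctions and a fit with a replicate block were added after seeing the data.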

Additional observations from a re-analysis of the deposited data

Results flagged for a closer look

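In all, 3 values of single libraries stood apart from the rest of their group of 5 by Dixon's test, which chance alone gives in about 1 in 20 groups. Bbc3 was highest in Usp7 cKO replicate 3, at 28.3 TPM. Usp7 WT replicate 5 was highest for Bak1, at 18.2 TPM, and for Bcl2l1, at 85.8 TPM. Without Usp7 WT replicate 5, Bax was called higher (log2 0.26), while Bak1 and Bcl2l1 stayed uncalled.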

How the results depend on the processing

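Of 220 values from 22 alternatives for each of the 10 genes, 192 kept their direction and their side of the threshold, 5 lost and 14 gained a call, and 9 changed sign. All 9 sign changes were of Bak1, which was uncalled throughout: -0.0441 on rescaled TPM, -0.0463 with Xist as covariate, -0.0169 without both libraries of discordant sex, -0.0301 and -0.0309 by edgeR with and without a filter, and -0.0355 by DESeq2. Without single libraries Bak1 ranged from -0.0156 to 0.0730, below 0 without Usp7 WT replicate 1 (-0.0151), Usp7 WT replicate 2 or Usp7 cKO replicate 2 (-0.00143). The count of genes called higher ranged from 4 to 6. The count called lower was 0 in limma with the labelled sex on TPM as deposited, but 2 in limma on rescaled TPM, 1 in limma with Xist as covariate, 2 by edgeR with or without a filter and 2 by DESeq2; leaving out single libraries gave 0 to 0. The cause was not tested. Exon and intron usage gave 0 calls in every alternative run. The difference in Bak1 exon inclusion was 2.80 percentage points from the upstream and 5.01 from the downstream junction. No label names the matched pairs. A replicate block on the last number of the sample titles, chosen after seeing the data, left the counts at 5 higher and 0 lower. Deviations from the group mean correlated at 0.123 on average over the 9 pairs of a Usp7 WT and a Usp7 cKO library that share such a number (lowest -0.0233) and at -0.069 over the 16 others, and 9 of 10 libraries correlated best with one of their own number, a hint from the data and not from the design. The Bak1 exon rests on 52 to 110 spliced reads per library.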
